A study of Mus musculus with 12 samples.

Results

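The passage of thymic invariant natural killer T (iNKT) cells from stage 0 to stage 1 was followed as 1 effect estimated over both genotypes of the series. All 12 RNA libraries of the series entered this comparison, 6 of stage 1 against 6 of stage 0, in an additive model of genotype and stage. Each stage held 3 libraries of WT mice and 3 libraries of CDCre;Bcl6F/F mice, which the labels call Bcl6KO. All mice were C57Bl/6J, 4 to 5 weeks old and untreated, and each pool combined the thymi of 4 to 7 animals. Stage 0 (ST0) cells bound the tetramer, were positive for TCRb and CD24 and lacked CD44. In the gate, stage 1 (ST1) cells differed from them only by the absence of CD24. The labels name neither the promoter that drives the Cre transgene nor the deleted exons, and they do not say whether WT mice carried Cre or floxed alleles. Nor do they state that the 3 libraries of each group were made from different pools of mice. The tests therefore weigh the stage difference against variation among libraries, which may be in part technical.

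iNKT cells are T cells whose semi-invariant receptor recognises lipid antigens presented by CD1d. They arise in the thymus from CD4 and CD8 double-positive thymocytes, which assemble receptor genes with the RAG recombinase and present the selecting lipids to each other. Stage 0 cells have just been selected and carry the marks of a strong receptor signal. Stage 1 cells have lost CD24, are known to divide and take up the innate-like program directed by PLZF, the product of Zbtb16, before they branch into the NKT1, NKT2 and NKT17 subsets named after their cytokines. BCL6 is a transcriptional repressor of the same zinc finger family, best known from follicular helper T cells and germinal centre B cells.

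Library totals ran from 4129919 to 8038717 counts, and levels below are counts per 1000000 of the scaled library total (CPM). More genes were detected at stage 1 (20762 ± 994, SD, n = 6) than at stage 0 (18028 ± 2356), and the Bcl6KO stage 0 libraries had the fewest (16287 ± 1437, n = 3). The share of counts from Sp100, a nuclear body gene, was 10.4 ± 9.01% at stage 0 and 1.24 ± 1.6% at stage 1. The share of Malat1, a nuclear RNA, was 2.35 ± 0.476% and 1.17 ± 0.384%, and that of genes annotated as ribosomal RNA or similar was 2.02 ± 0.439% and 3.24 ± 1.07%. Xist stood at 399.6 and 132.5 CPM in the 2 Bcl6KO libraries numbered 2, against 4621 to 8601 CPM in the other 10. Cd3e, a chain of the T cell receptor complex, lay between 998 and 1915 CPM at stage 0 and between 816 and 1978 CPM at stage 1. Traj18, the joining segment of the invariant alpha chain, had few counts, at 0.596 to 3.33 CPM in stage 0 and 0.204 to 3.34 CPM in stage 1. Trav11, the variable segment of that chain, spanned 216 to 397 CPM and 205 to 303 CPM. Its near-identical copy Trav11d had almost the same counts, and the 2 cannot be told apart. In these bulk samples, fewer cells of a type and less RNA per cell cannot be told apart either.

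The gate was visible in the RNA. Cd24a had a lowest, median and highest level of 148, 174 and 311 CPM over the 6 stage 0 libraries, and of 0.786, 1.58 and 13.7 CPM at stage 1. The stages did not overlap, and the fitted log2 fold change was -6.05 (SE 0.72), a description since CD24 defined the sort. Cd44, whose product binds hyaluronan and was gated out at both stages, spanned 0.198 to 7.84 CPM at stage 0 and 3.34 to 26.8 CPM at stage 1, and its difference did not pass (log2 fold change 2.74, SE 0.97, edgeR adjusted p = 0.172). Bcl6 (ENSMUSG00000022508, chromosome 16, 23965052 to 23988852, minus strand, mm10) stood at 371, 215 and 274 CPM in WT stage 0 and at 508, 654 and 649 CPM in the libraries labelled Bcl6KO stage 0. Its stage 1 levels were 8.72, 4.13 and 8.57 CPM in WT and 14.6, 55.8 and 25 CPM in Bcl6KO. Counts were given for the whole gene and not by exon, which leaves both the deletion and the genotype labels unchecked. The fall of Bcl6 between stages was found in both genotypes (-4.77, SE 0.39, edgeR adjusted p = 6.82e-05), at -5.32 (SE 0.53) in WT and -4.25 (SE 0.49) in Bcl6KO.

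Cells of both genotypes went from stage 0 to stage 1 with lower levels of Rag1, Cd8a, Myb, Bcl6 and Itm2a, genes of the double-positive thymocyte and of recent selection. Icos, a costimulatory receptor, Ugcg, an enzyme of glycolipid synthesis, Arl4c, a small GTPase, and B2m, which encodes the invariant subunit of class I molecules, were higher. Of 15704 genes tested, 363 passed edgeR's quasi-likelihood test at a Benjamini-Hochberg adjusted p under 0.05, which is 2.31%. Among them 177 rose (1.13%) and 186 fell (1.18%), and without adjustment 2439 genes had p under 0.05, where chance alone would give about 785. In 131 of the risen and 127 of the fallen genes the 6 stage 1 libraries did not overlap the 6 stage 0 libraries, which held for 297 (1.89%) and 194 (1.24%) of all tested genes, 491 in all (3.13%). The plot of levels by library shows 16 of these genes.

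**Figure D1:**
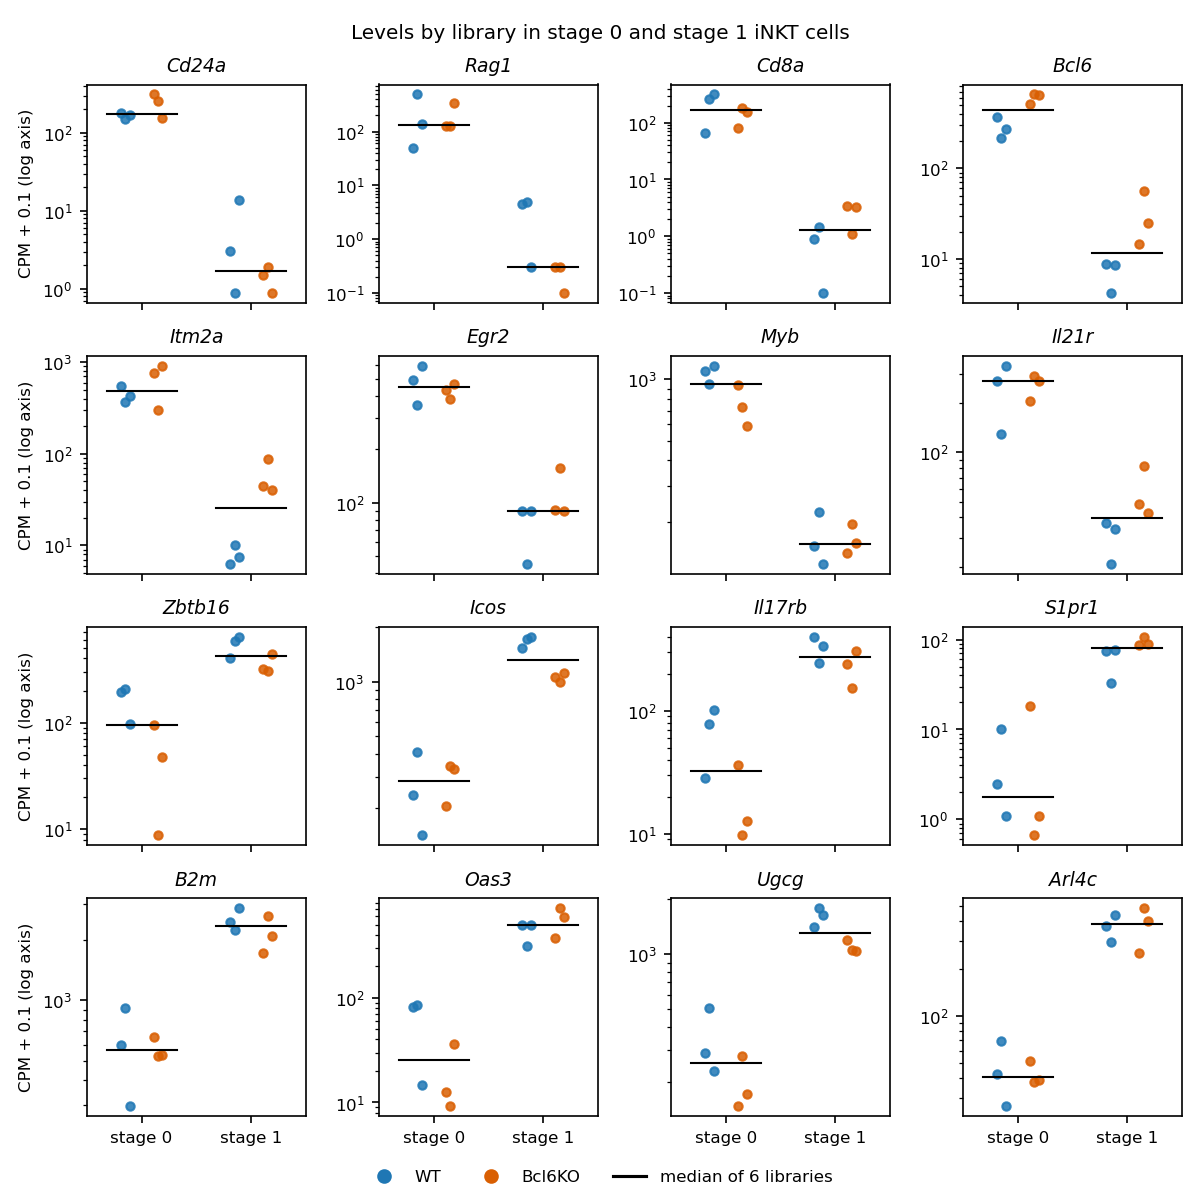
CPM + 0.1 on log axes for 16 genes in the 6 stage 0 and 6 stage 1 libraries, with WT libraries in blue, Bcl6KO libraries in orange and a bar at the median of each stage. In each of the 16 panels the stages do not overlap, with Bcl6 at 215 to 654 CPM in stage 0 and 4.13 to 55.8 CPM in stage 1 (values given without the added 0.1).

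The called changes were large. Risen genes had a median log2 fold change of 3.08, or 2.91 with the 8 genes that had 0 counts in all stage 0 libraries set to their lower bound, and fallen genes a median of -2.07. Among the risen, 91 changed by more than 8-fold, 83 by 2-fold to 8-fold and 3 by less, and among the fallen the numbers were 54, 118 and 14. The median over all tested genes was 0.02, with 50.8% of them positive. At stage 0, 49 of the risen genes lay on average under the level that 3 counts in a library give (0.586 CPM), and at stage 1, 20 of the fallen genes did (0.596 CPM). In 1 set of simulated counts of the same genes, 2, 8, 30 and 32 of 50 genes changed by 2-fold, 4-fold, 8-fold and 16-fold were returned. The changed genes were drawn at random among those with a mean of at least 1 CPM. Over such genes most changes of 4-fold or less were missed, and the rate was not examined by abundance. Without the 3 Bcl6KO stage 0 libraries the number of calls fell to 149. That fit, here and below, estimates the stage effect from WT libraries alone, since Bcl6KO is then present at stage 1 only. Over all 12 libraries, calls fell to 97 with the Sp100 share as a covariate and to 14 with the number of genes detected as a covariate. These technical values differed between stages on average but not in every library, since WT stage 0 library 2, with 21607 genes detected and 0.0289% Sp100, lay within the range of stage 1. Their part in the changes was not tested beyond these fits.

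The effect was shared between genotypes as far as separate libraries could show it. All 177 risen and 186 fallen genes had the same sign in both genotypes, and 174 and 177 of them had an unadjusted p under 0.05 in each, counts that the choice of genes on the averaged effect favours. Genes called within 1 genotype can be read in the other, whose fold change did not enter the choice, although its libraries shared the filter and the estimate of the spread. Of the 68 genes called within WT (0.433% of those tested), 68 had the same sign in Bcl6KO and 59 also had an unadjusted p under 0.05 there, against 16.4% of all genes with such a p in either direction. Of the 106 genes called within Bcl6KO (0.675%), 99 had the same sign in WT and 71 such a p, against 8.4% of all genes. Over all 15704 genes the fold changes of the genotypes correlated at a Pearson r of 0.31 and a Spearman rho of 0.27, and 59.7% had the same sign, a description across genes, which are not independent replicates. The scatter of the genotypes' fold changes places the called genes where both have the same sign.

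**Figure D2:**
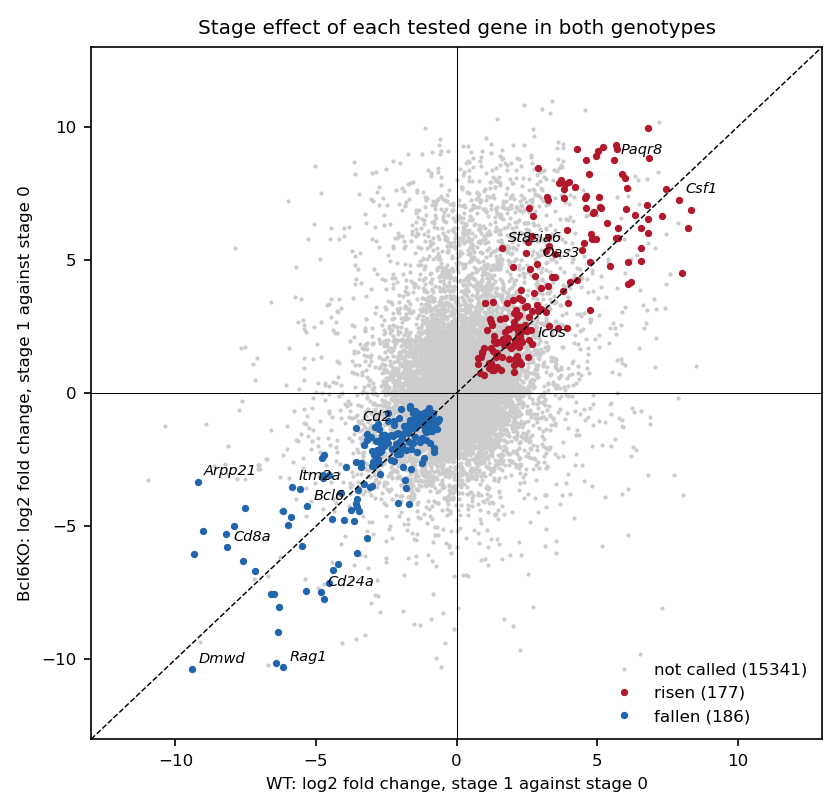
Log2 fold change of stage 1 against stage 0 in WT (horizontal) and Bcl6KO (vertical) for each of the 15704 tested genes, with the 177 risen genes in red, the 186 fallen in blue and the line of equal change dashed. All 363 called genes lie where both genotypes have the same sign, which the averaged effect favours.

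The genes called within 1 genotype were then averaged in each library, on a scale of log2(CPM + 1). The 57 genes called lower within WT averaged 8.15 to 8.70 in the WT stage 0 libraries and 5.33 to 5.65 in the WT stage 1 libraries. In the Bcl6KO libraries they averaged 8.32 to 8.40 at stage 0 and 6.14 to 6.59 at stage 1. The 66 genes called higher within Bcl6KO averaged 1.84 to 2.11 in Bcl6KO stage 0, the libraries with the fewest genes detected, and 5.73 to 5.96 in Bcl6KO stage 1. In WT they averaged 3.38 to 4.33 at stage 0 and 5.76 to 5.86 at stage 1. The stages did not overlap in the other genotype, for these 2 sets or for the other 2 in the plot of genes called in 1 genotype. The fall of the WT set was shallower in Bcl6KO (median log2 fold change -1.77 against -2.69), and the rise of the Bcl6KO set was shallower in WT (2.08 against 6.39). A set chosen for its size in 1 genotype tends to be larger there, so these gaps alone cannot tell whether the genotypes differ. The part of this choice in the gaps was not tested.

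**Figure D3:**
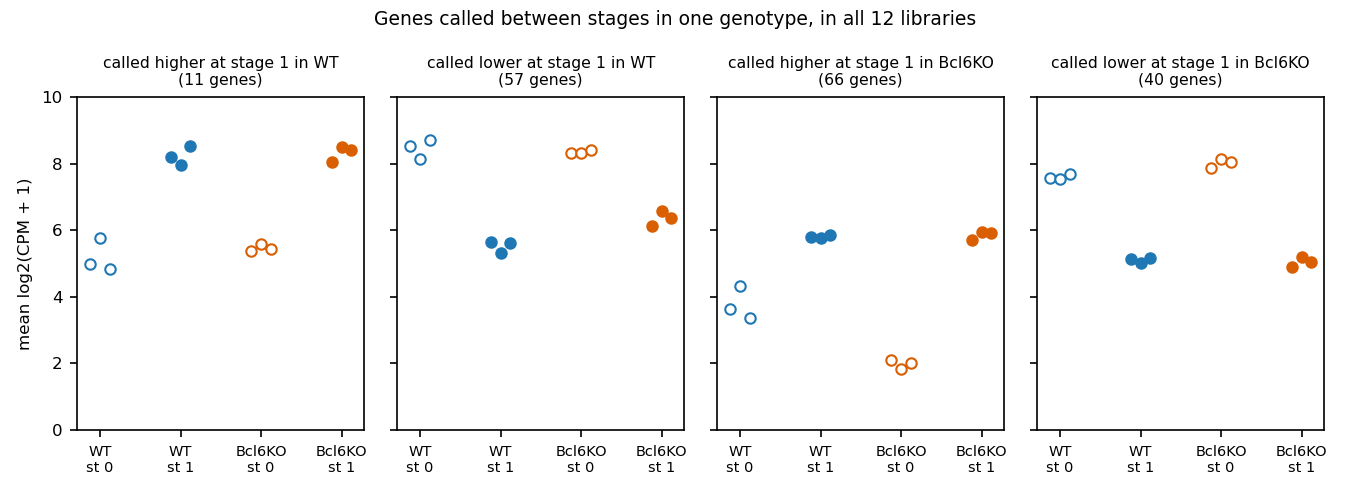
Mean log2(CPM + 1) in each of the 12 libraries over the genes called higher or lower at stage 1 within WT (11 and 57 genes) and within Bcl6KO (66 and 40 genes), with open points for stage 0 and filled points for stage 1. In each panel the 3 stage 0 and 3 stage 1 libraries of the other genotype do not overlap.

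Among genes of the double-positive thymocyte and of receptor gene assembly, the members that passed all fell. Of 24 listed genes 21 were tested, 8 fell and 0 rose (38.1% called, against 2.31% of all genes). The median log2 fold change was -1.97 over the tested members against 0.02 over all genes. Rag1, the recombinase subunit, had a lowest, median and highest level of 50.2, 132 and 489 CPM at stage 0 and 0, 0.201 and 4.72 CPM at stage 1, and it fell by 7.51 on the log2 scale (SE 0.97, edgeR adjusted p = 0.00117). Dntt, the polymerase that adds bases at receptor gene junctions, went from 10.6, 45.3 and 103 CPM to 0, 0.0982 and 1.78 CPM (-7.02, SE 1.04, edgeR adjusted p = 0.00328). Cd8a, a CD8 coreceptor chain, went from 65.9, 169 and 315 CPM to 0, 1.18 and 3.36 CPM (-6.85, SE 0.74, edgeR adjusted p = 3.39e-04). None of these 3 overlapped between stages. The other coreceptor chain Cd8b1 fell by 3.25 (SE 0.49). Arpp21, a phosphoprotein gene abundant in double-positive cells, fell by 5.64 (SE 1.08, edgeR adjusted p = 0.0146), with 79.2 to 405 CPM at stage 0 and 0.196 to 49.4 CPM at stage 1. Aqp11 (-2.42), a water channel, Nrgn (-1.97), a calmodulin-binding protein, and Endou (-7.21), an RNA-cleaving enzyme, also fell, but their calls were lost in 6, 8 and 7 of the 12 fits that each leave out 1 library (adjusted p of up to 0.0829, 0.113 and 0.0827). The list counted 4 fallen genes with the Sp100 covariate (median -1.53), 2 with the covariate of genes detected (-1.82) and 4 without the Bcl6KO stage 0 libraries (-2.53).

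Genes switched on by the selecting receptor signal also fell in most cases that passed, with 12 fallen and 2 risen among 30 tested of 31 listed. The median was -0.93, and 46.7% were called, against 2.31% of all genes. With the Sp100 covariate 8 fell and 1 rose (median -0.81), and with the covariate of genes detected 1 and 1 (-0.89). Among the immediate response factors, Egr2, which iNKT development needs, went from 355, 451 and 595 CPM to 44.8, 89.7 and 156 CPM (-2.31, SE 0.26, edgeR adjusted p = 4.87e-04). Its relative Egr1 went from 658, 997 and 1515 CPM to 153, 215 and 331 CPM (-2.19, SE 0.25). The orphan receptor gene Nr4a1, a reporter of receptor signal strength, went from 56.6, 81.8 and 207 CPM to 3.16, 6.74 and 15.1 CPM (-3.87, SE 0.47, edgeR adjusted p = 7.14e-04). No library of 1 stage reached the range of the other for these 3 genes. Surface proteins of the recently selected thymocyte followed. Itm2a, a membrane protein induced at positive selection, went from 299.9, 491 and 917 CPM to 6.15, 25.3 and 87.8 CPM (-4.65, SE 0.49, edgeR adjusted p = 3.39e-04). Cd69, which holds cells in the thymus by opposing the receptor S1PR1, went from 96.3, 247 and 299 CPM to 0.589, 19.1 and 32.6 CPM (-3.79, SE 0.59, edgeR adjusted p = 0.00403). Both separated the stages. The costimulatory receptors Cd27 (-1.56) and Cd28 (-1.09) and the nuclear factor Tox (-1.33) fell less steeply. Nr4a2 (-5.44), Cd5 (-1.14) and Nfatc1 (-1.0) fell too, but lost their calls in 6, 7 and 2 of the 12 fits without 1 library (adjusted p of up to 0.0820, 0.0824 and 0.0589).

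The 2 risen members of that list were Icos and Irf4. Icos, a costimulatory receptor used by NKT2 cells, had 142, 283 and 408 CPM at stage 0 and 1002, 1321 and 1769 CPM at stage 1, with no overlap (log2 fold change 2.27, SE 0.26, edgeR adjusted p = 4.87e-04). Its call held in all 27 alternative analyses. Irf4, a transcription factor of activated lymphocytes, had 0, 14.7 and 24.3 CPM and then 75.8, 98.3 and 164 CPM (3.09, SE 0.73, edgeR adjusted p = 0.0407). The stages did not overlap for Irf4, yet its call was lost in 10 of the 12 fits that leave out 1 library, with an adjusted p of up to 0.105.

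Transcription regulators known from iNKT development moved in both directions, with 3 risen and 8 fallen among 33 tested of 36 listed (median -0.47). That is 33.3% called, against 2.31% of all genes. Zbtb16 went from 8.68, 95.3 and 209 CPM to 303, 423 and 638 CPM (2.26, SE 0.45, edgeR adjusted p = 0.0166). It stood at 1.71 (SE 0.59) in WT and 2.81 (SE 0.62) in Bcl6KO, and its call held in the 12 fits without 1 library but not with either technical covariate. Maf, a factor of NKT17 and follicular helper cells, went from 1.19, 2.59 and 95.2 CPM to 61.5, 163 and 504 CPM (4.32, SE 0.82, edgeR adjusted p = 0.0145), with 1 stage 0 library inside the range of stage 1. Foxo1, which directs genes of quiescence and homing, went from 54.3, 80.9 and 135 CPM to 126, 233 and 322 CPM (1.5, SE 0.29, edgeR adjusted p = 0.0145), with a slight overlap.

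Among the fallen regulators, Myb, a progenitor factor that iNKT cells require, showed 592, 943 and 1166 CPM and then 124, 154 and 222 CPM (-2.44, SE 0.20, edgeR adjusted p = 6.82e-05). Zeb2, a repressor of the E-box binding kind, went from 2.38, 17.2 and 44.1 CPM to 0, 0.198 and 0.816 CPM (-5.62, SE 0.96, edgeR adjusted p = 0.00792), a stage 1 mean under the level of 3 counts. Gfi1 (-2.88), a repressor related to BCL6 in its zinc fingers, Hivep3 (-2.46), a zinc finger factor with an early role in iNKT cells, Sox4 (-2.39), Bach2 (-2.09), a repressor of effector genes, and Lef1 (-2.06), a partner of beta-catenin, also separated the stages. Hivep3 was the most abundant of them, at 3057 to 8633 CPM in stage 0 and 714 to 2216 CPM in stage 1. With the Sp100 covariate 1 of the list rose and 6 fell (median -0.21), and with the covariate of genes detected 0 rose and 2 fell (median -0.01).

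**Figure D4:**
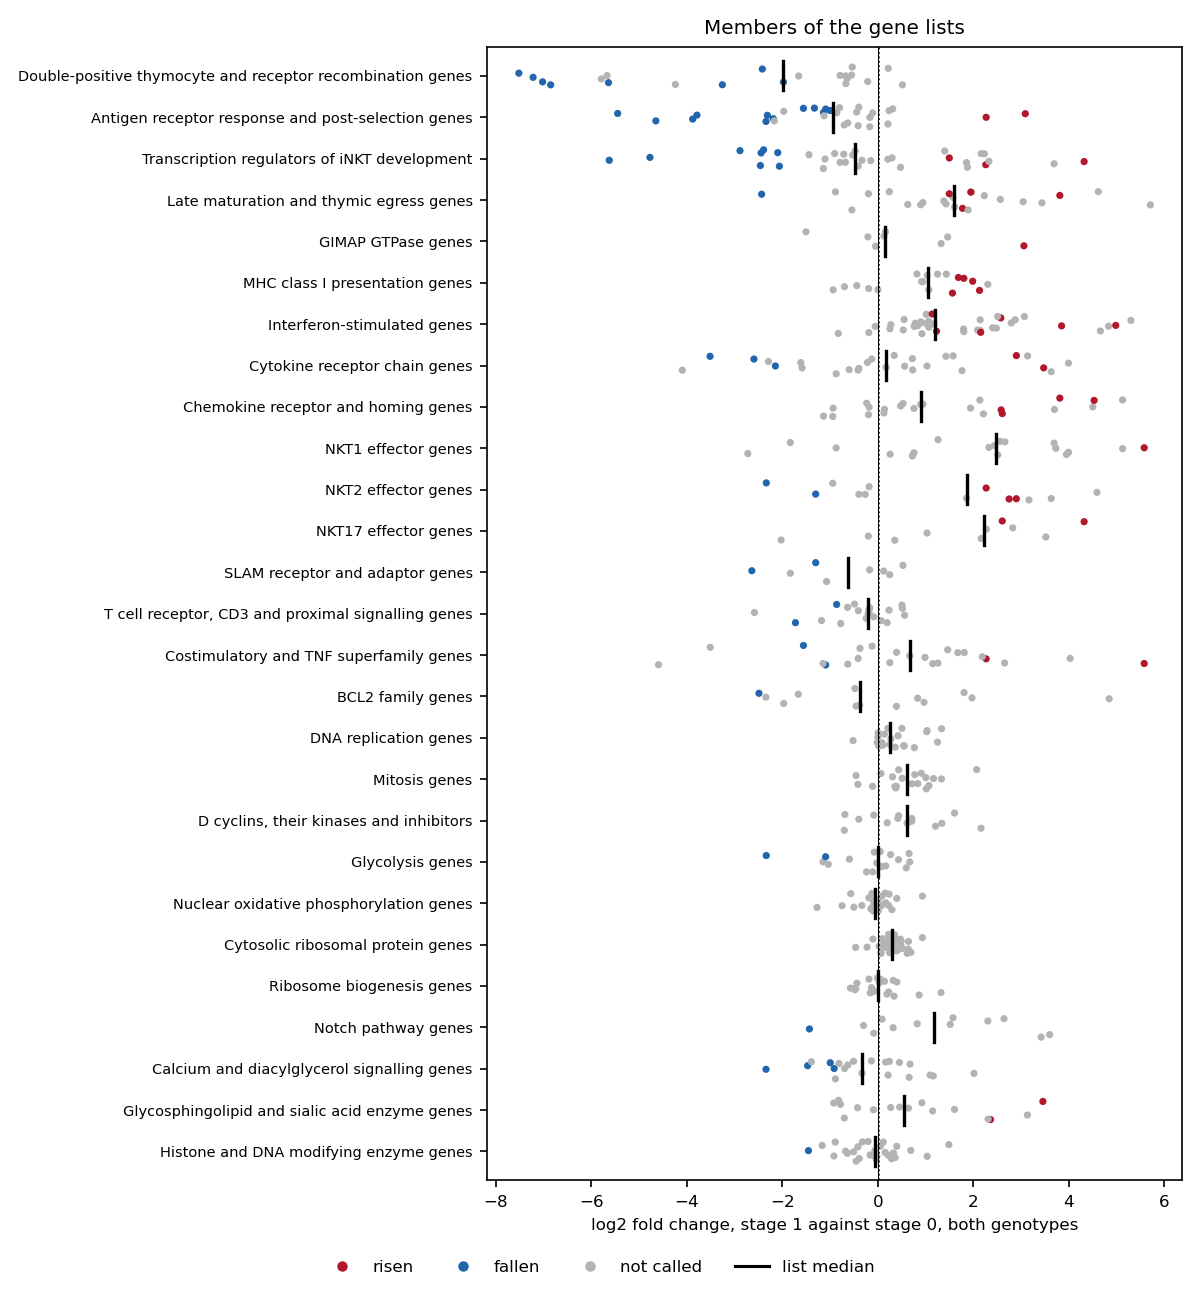
Log2 fold change of stage 1 against stage 0 for the tested members of the 27 pathway lists, with risen genes in red, fallen in blue, genes that did not pass in grey and the median of each list as a bar. The dotted line is the median of all tested genes (0.02), and list medians run from -1.97 for double-positive thymocyte genes to 2.47 for NKT1 effector genes, of which 1 member passed.

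Cytokine receptor chains moved both ways, with 2 risen and 3 fallen among 27 tested of 28 listed (median 0.17). That is 18.5% called, against 2.31% of all genes. Il21r, the interleukin 21 receptor, fell from 129, 274 and 339 CPM to 20.6, 39.7 and 82.1 CPM (-2.59, SE 0.32, edgeR adjusted p = 8.02e-04). Il6st, the signalling chain shared by the interleukin 6 family, fell from 80.2, 226 and 292 CPM to 24.3, 50.5 and 62.1 CPM (-2.14, SE 0.33, edgeR adjusted p = 0.00358). Neither overlapped between stages. Il4ra, the interleukin 4 receptor, fell by 3.51 (SE 0.64, edgeR adjusted p = 0.0113), with 20.4 to 153 CPM and then 3.14 to 23.9 CPM, a slight overlap. Il17rb, a receptor for interleukin 25 that marks NKT2 and some NKT17 precursors, rose from 9.62, 32.2 and 102 CPM to 153, 275 and 399 CPM (2.90, SE 0.44, edgeR adjusted p = 0.00358). Il18r1, the interleukin 18 receptor, had 1.96, 11.7 and 217 CPM and then 220.0, 399 and 819 CPM (3.47, SE 0.80, edgeR adjusted p = 0.0372), a call lost in 9 of the 12 fits without 1 library (adjusted p of up to 0.0782).

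Effector genes of the 3 iNKT subsets had medians above that of all genes, but few members passed. For NKT1 genes the median was 2.47 and 1 of 18 tested (24 listed) rose (5.56%, against 2.31% of all genes called). This was Fasl, the ligand of the death receptor FAS, with 1 count in all at stage 0 and 99 at stage 1, a ratio of 101. The 95% exact counting interval of 17.7 to 4018 pools the libraries and leaves out the spread between them. The call of Fasl was lost in 1 of the 12 fits without 1 library (adjusted p of 0.0529). Its stage 1 mean was 6.16 CPM in WT but 0.397 CPM in Bcl6KO, under the level of 3 counts. For NKT2 genes the median was 1.86, but 1.58 within WT and 0.336 within Bcl6KO, with 7 fold changes positive and 6 negative. Of the 13 tested, 3 rose and 2 fell (38.5% called). An unadjusted p under 0.05 in edgeR's test of the difference between genotypes was found for 6 of them, against 7.78% of all genes. Icos, Il17rb and Plac8 rose, while Slamf6, a homotypic receptor of selection, and Ldhb, a lactate dehydrogenase chain, fell. For NKT17 genes the median was 2.22 and 2 of 10 tested (18 listed) rose (20% called), Maf and Ccr2. With the Sp100 covariate 0 NKT1, 2 NKT2 and 1 NKT17 genes rose. With the covariate of genes detected the numbers were 0, 1 and 0, and 0 fell in either fit. A listed gene of low level was tested only where some group raised it above the filter, so these medians do not describe the whole lists. The 2 fallen NKT2 members stood at 324 to 1015 CPM and 202 to 345 CPM for Slamf6 (-1.30, SE 0.27, edgeR adjusted p = 0.0217, lost in 3 of 12 fits without 1 library, up to 0.0676). Ldhb stood at 86.4 to 193 CPM and 6.29 to 47.5 CPM (-2.33, SE 0.40, edgeR adjusted p = 0.00847). In the receptor family of Slamf6, which transmits the homotypic signal of iNKT selection, Slamf1 fell too (-2.64, SE 0.41), and the other 6 of 8 tested members did not pass.

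Genes of late maturation and exit from the thymus had a median of 1.59, with 4 of 24 risen and 1 fallen (20.8%, against 2.31% of all genes called). Without the Bcl6KO stage 0 libraries 2 rose and 2 fell. With the Sp100 covariate 0 passed at a median of 1.59, and with the covariate of genes detected 0 at 1.17. S1pr1, the sphingosine phosphate receptor that guides cells out of the thymus, had 0.566, 1.68 and 18.1 CPM at stage 0 and 33.0, 80.6 and 107 CPM at stage 1 (3.81, SE 0.80, edgeR adjusted p = 0.0236). Its stages did not overlap, but the call was lost in 4 of the 12 fits without 1 library (adjusted p of up to 0.0566). Cd52, a small surface glycoprotein, went from 29.8, 77.5 and 111 CPM to 186, 303 and 314 CPM (1.95, SE 0.33, edgeR adjusted p = 0.00772). Ly6e, a surface protein anchored by a lipid, went from 96.0, 396 and 549.7 CPM to 949, 1354 and 1504 CPM (1.77, SE 0.32, edgeR adjusted p = 0.00997). Foxo1, described above, was the fourth. Cd2, an adhesion receptor, fell from 197, 318 and 336 CPM to 10.8, 60.0 and 166 CPM (-2.43, SE 0.45, edgeR adjusted p = 0.0123), at -3.58 (SE 0.44) in WT and -1.30 (SE 0.40) in Bcl6KO.

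Chemokine receptor and homing genes gave 4 risen and 0 fallen among 23 tested of 24 listed (median 0.90). That is 17.4% called, against 2.31% of all genes, and 1 rose without the Bcl6KO stage 0 libraries. With the Sp100 covariate 0 passed at a median of 0.91, and with the covariate of genes detected 0 at 0.74. Itgb3, an integrin beta chain, went from 12.3, 109 and 226 CPM to 543, 629 and 697 CPM (2.58, SE 0.50, edgeR adjusted p = 0.0155). Ccr2, a chemokine receptor, went from 11.7, 23.5 and 112 CPM to 181, 244 and 478 CPM (2.60, SE 0.57, edgeR adjusted p = 0.0284). Cxcr6, a receptor of iNKT cells homing to liver, went from 0, 4.11 and 40.2 CPM to 70.6, 121 and 194 CPM (4.53, SE 1.10, edgeR adjusted p = 0.0470). The stages were apart for all 3, but the calls of Ccr2 and Cxcr6 were lost in 7 and 10 of the 12 fits without 1 library (adjusted p of up to 0.0708 and 0.0984). Of the GIMAP genes, GTPases that support lymphocyte survival, 1 of 8 rose (12.5%, against 2.31% of all genes called), a single call in a short list. Gimap4 had 8.68, 30.1 and 134 CPM and then 312, 378 and 439.8 CPM (3.06, SE 0.50, edgeR adjusted p = 0.00530).

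Class I antigen presentation and interferon-stimulated genes gave rises only among the members that passed edgeR's test. Of 18 class I genes 5 rose and 0 fell (27.8%, against 2.31% of all genes called), with 14 fold changes positive and 4 negative (median 1.05). DESeq2 called 9 of them higher and 1 lower. Of 38 interferon-stimulated genes 6 rose and 0 fell (15.8% called), with 35 of 38 fold changes positive (median 1.20). With the Sp100 covariate 1 and 3 rose, at medians of 0.80 and 1.45. With the covariate of genes detected 0 and 0 rose, at medians of 0.72 and 1.29, and without the Bcl6KO stage 0 libraries 2 and 4. B2m went from 296, 566 and 916 CPM to 1723, 2345 and 2879.7 CPM (1.99, SE 0.23, edgeR adjusted p = 5.17e-04), at 2.06 (SE 0.33) in WT and 1.91 (SE 0.33) in Bcl6KO. The class I heavy chain genes H2-K1 (2.13, SE 0.40) and H2-D1 (1.80, SE 0.30) went from medians of 185 and 156 CPM to 816 and 616 CPM, though reads of near-identical class I genes can be split between them. Tapbp, which loads peptides onto class I molecules, and Nlrc5, the activator of class I genes, rose by 1.69 and 1.56, and both lost their calls in 7 of the 12 fits without 1 library (adjusted p of up to 0.0698 and 0.0690).

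Among interferon-stimulated genes, Oas3, a sensor of double-stranded RNA, went from 9.06, 25.5 and 85 CPM to 313, 495 and 720.5 CPM (3.85, SE 0.56, edgeR adjusted p = 0.00276). Its relative Oas2 went from 0.397, 2.16 and 7.44 CPM to 51.6, 63.1 and 195 CPM (4.98, SE 0.77, edgeR adjusted p = 0.00399). Samhd1, which breaks down nucleotides, went from 32.5, 61.6 and 107 CPM to 172, 293 and 403 CPM (2.15, SE 0.31, edgeR adjusted p = 0.00262). These 3 separated the stages and held their calls in the 12 fits without 1 library. Trim30a (2.57) and Parp14 (1.23) rose and lost their calls in 8 and 1 of these fits (adjusted p of up to 0.0697 and 0.0622). Rnf213, an interferon-induced ligase outside the list that was chosen after its values were seen, went from 35.5, 79.5 and 187 CPM to 405, 445 and 600.3 CPM (2.26, SE 0.33, edgeR adjusted p = 0.00276).

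The 11 risen members of the class I and interferon-stimulated lists share a direction because they were chosen for it. The 250 bases before their start sites were read from RefSeq on GRCm38.p6, where 7 of them were listed. The letters GAAA, any 2 bases and GAAA again, which interferon regulatory factors are known to bind, were searched on both strands and found before 3 of the 7. They lay 139 bases before the start of B2m (chr2:122147437-122147686, plus strand), 75 before that of Oas3 (chr5:120777660-120777909, minus strand) and 36 before 1 of the starts of Trim30a (chr7:104465194-104465443, minus strand). The 3 windows are printed 5′ to 3′ on the strand of the gene, with the matching letters in capitals, to show where they stand. In Trim30a they are on the opposite strand.
B2m: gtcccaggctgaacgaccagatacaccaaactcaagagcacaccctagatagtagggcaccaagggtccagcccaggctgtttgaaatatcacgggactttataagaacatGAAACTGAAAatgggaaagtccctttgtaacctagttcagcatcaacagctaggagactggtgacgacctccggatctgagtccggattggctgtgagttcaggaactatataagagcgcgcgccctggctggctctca
Oas3: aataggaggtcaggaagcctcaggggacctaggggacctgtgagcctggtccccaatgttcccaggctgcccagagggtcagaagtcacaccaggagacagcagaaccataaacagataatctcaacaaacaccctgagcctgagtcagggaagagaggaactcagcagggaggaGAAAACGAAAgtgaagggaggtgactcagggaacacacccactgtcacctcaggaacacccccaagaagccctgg
Trim30a: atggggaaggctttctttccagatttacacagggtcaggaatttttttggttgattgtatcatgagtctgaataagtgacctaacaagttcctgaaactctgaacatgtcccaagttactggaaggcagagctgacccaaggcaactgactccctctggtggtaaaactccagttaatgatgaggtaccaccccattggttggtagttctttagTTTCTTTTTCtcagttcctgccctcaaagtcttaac

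The same letters were counted over the called genes listed in the table, which are 120 of the 177 risen and 128 of the 186 fallen genes. They were in 12 of 173 windows of risen genes (6.94%) and in 3 of 179 windows of fallen genes (1.68%), against 2.73% of the windows of tested genes and 2.98% of all 32851 windows in the table. The letters GCGNGGGCG, bound by EGR factors, were in 2.31% of the windows of risen and 8.94% of those of fallen genes, against 8.25% of tested genes. TGNGGTT, bound by RUNX factors, was in 15% and 7.82%, against 11.4%. TTCNNNGAA, bound by STAT factors and close to the BCL6 motif, was in 8.09% and 6.15%, against 5.95%. The remaining 4 of the 8 motifs searched on both strands were CAGGTG (16.8%, 14.5% and 15.7%), CAGCTG (11%, 14.0% and 11.9%), CTTTGNT (12.1%, 10.1% and 12.7%) and GGGNGTGG (19.1%, 21.2% and 20.1%). A match is a description of these letters, windows of 1 gene can overlap, and no test was made.

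Enzymes of surface glycans and lipids gave 2 risen and 0 fallen among 16 tested (12.5%, against 2.31% of all genes called, median 0.55). Ugcg, which makes glucosylceramide, the base of most glycosphingolipids, went from 146, 252 and 509 CPM to 1046, 1308 and 1795 CPM (2.36, SE 0.22, edgeR adjusted p = 9.87e-05), at 2.24 (SE 0.32) in WT and 2.47 (SE 0.32) in Bcl6KO. Its call held in all 27 alternatives. St8sia6, a sialic acid transferase, went from 2.16, 11.7 and 93.9 CPM to 141, 159 and 226 CPM (3.45, SE 0.77, edgeR adjusted p = 0.0305), and was lost in 7 of the 12 fits without 1 library (up to 0.0827). Outside the list and chosen after their values were seen, Siae, which removes acetyl groups from sialic acids, fell by 2.02 (SE 0.28, edgeR adjusted p = 0.00167) from 201 to 433 CPM to 33.6 to 94.9 CPM. The cholesterol exporter Abca1 rose by 2.11 (SE 0.38) and Rxra, a nuclear receptor that partners with sterol and vitamin sensors, by 3.92 (SE 0.71, edgeR adjusted p = 0.0107). Rxra had 0.980, 3.08 and 25.3 CPM at stage 0 and 82.8, 105 and 135 CPM at stage 1, without overlap. Vdr, the vitamin D receptor, rose by 3.67 (SE 0.79, edgeR adjusted p = 0.0268), a call lost in 6 of the 12 fits without 1 library (up to 0.0856).

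Receptor signalling genes gave falls only among the members that passed edgeR's test. Of 20 genes of the receptor complex and its proximal kinases and adaptors, 2 fell (10%, against 2.31% of all genes called). Ptprc, the CD45 phosphatase, went from 1638, 1923 and 2074 CPM to 673, 1043 and 1493 CPM (-0.86, SE 0.14, edgeR adjusted p = 0.00688). Tespa1, an adaptor of selection, fell by 1.72 (SE 0.37) and lost its call in 6 of the 12 fits without 1 library (up to 0.0713). Of 21 calcium and diacylglycerol genes, 4 fell and 0 rose (19% called), while DESeq2 called 5 of them lower and 3 higher. With the Sp100 covariate 1 receptor gene and 3 calcium and diacylglycerol genes fell. With the covariate of genes detected 0 of either list passed. Rasgrp1, which links diacylglycerol to RAS, went from 599, 1004 and 1553 CPM to 141, 182 and 355 CPM (-2.34, SE 0.30, edgeR adjusted p = 0.00108). Dgkz, which removes diacylglycerol, fell by 1.47 (SE 0.20) and Camk4, a calcium-dependent kinase, by 0.91 (SE 0.15). Among genes chosen after their values were seen, the receptor beta chain constant segment Trbc2 fell by 0.82 (SE 0.16) and Trbc1 by 0.80 (SE 0.19), the latter lost in 11 of the 12 fits without 1 library (up to 0.0976). Their near-identical sequences can share reads.

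Survival, metabolism and chromatin genes showed single changes. Bcl2, the survival factor, went from 302, 856 and 1645 CPM to 43.4, 132 and 458 CPM (-2.49, SE 0.39, edgeR adjusted p = 0.00403), with an overlap between stages. It was the 1 member of 13 tested BCL2 family genes to pass (7.69%, against 2.31% of all genes). In a list this short 1 call says little about the family. Of 18 glycolysis genes, Ldhb and the phosphofructokinase gene Pfkp fell (11.1% of the list, Pfkp -1.09, SE 0.20, edgeR adjusted p = 0.0113) and 0 rose. Maml2, a coactivator of Notch signalling, fell by 1.43 (SE 0.33) and was 1 of 12 Notch genes tested to pass (8.33%, again a single call). Kdm5b, a histone demethylase, fell by 1.45 (SE 0.34) and was 1 of 29 chromatin enzymes to pass (3.45%, close to the 2.31% of all genes). The calls of Maml2 and Kdm5b were each lost in 8 of the 12 fits without 1 library (up to 0.0954 and 0.0963).

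Proliferation and growth genes did not pass in either direction, where 2.31% of all genes did, so lists of this size lie near the background. None of 22 DNA replication genes, 20 mitosis genes or 15 genes of the D cyclin group passed edgeR's test, with medians of 0.26, 0.61 and 0.61. At an unadjusted p under 0.05 the numbers were 3, 4 and 3, against 15.5% of all genes, DESeq2 called 1, 1 and 0 of them higher, and limma-voom called 0 in each. The mitosis median was 1.43 in WT and 0.01 in Bcl6KO. Ccnd2, a D cyclin, had 693 to 756 CPM in WT stage 0 and 954 to 1217 CPM in WT stage 1, but 1731 to 2614 CPM in Bcl6KO stage 0 and 1112 to 1473 CPM in Bcl6KO stage 1. Its fold change was 0.63 (SE 0.20) in WT and -0.80 (SE 0.21) in Bcl6KO, without overlap of stages in either genotype (unadjusted p of the difference 2.58e-04, edgeR adjusted p = 0.483). Mki67, a protein of cycling cells, had 336, 961 and 2239 CPM at stage 0 and 439.9, 1291 and 3161 CPM at stage 1, ranges that overlapped (0.84, SE 0.30, edgeR adjusted p = 0.183). All 48 cytosolic ribosomal protein genes failed the test, although 45 fold changes were positive (median 0.29), and so did all 26 oxidative phosphorylation genes (-0.06) and all 22 ribosome biogenesis genes. Of these 3 lists 7, 1 and 0 genes had an unadjusted p under 0.05, and DESeq2 and limma-voom called 0. At the most abundant members the stage 0 and stage 1 medians were 658 and 879.9 CPM for Rps6, 833 and 773 CPM for Atp5b and 796 and 752 CPM for Ncl. Rps6 passed in none of the 27 alternatives, where its log2 fold change ran from 0.13 to 0.57.

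The lowest p-values and the largest folds fell on different genes. Beside Bcl6 and Myb, low p-values belonged to Arl4c, a GTPase of membrane traffic, with 26.4, 40.6 and 69.3 CPM at stage 0 and 251, 387 and 487 CPM at stage 1 (3.08, SE 0.27, edgeR adjusted p = 7.05e-05). Med14, the central subunit of the Mediator complex, went from 1529, 2151 and 2583 CPM to 270.4, 495 and 708 CPM (-2.14, SE 0.20, edgeR adjusted p = 1.06e-04). Inpp4b, a phosphatase of inositol lipids (2.29, SE 0.27), and Etnk1, an ethanolamine kinase (-1.68, SE 0.18), also separated the stages. Of the 363 calls, 13 held in all 27 alternatives, and 11 of these are Arl4c, Bcl6, Cd24a, Cd8a, Etnk1, Icos, Itm2a, Med14, Myb, Rag1 and Ugcg. The other 2 are the predicted gene Gm26577, whose interval on chromosome 10 (21145094 to 21154374) lies within that of Myb on the other strand (21124935 to 21160984), and Gm9821, on chromosome 2 (91945703 to 91947655) within Dgkz (91932824 to 91975864). No source states whether counting used the strand, so reads of these pairs cannot be told apart.

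The largest rises started from almost no counts. Csf1, a growth factor of macrophages, had 0 to 1.39 CPM at stage 0 and 8.06, 91.8 and 103 CPM at stage 1 (7.57, SE 1.01, edgeR adjusted p = 0.00147). Paqr8, a membrane progestin receptor, had 0 to 0.199 CPM and then 5.70, 21.3 and 45.7 CPM (7.04, SE 0.91), and F2rl1, a receptor cut by proteases, 0 to 0.587 CPM and then 10.9, 40.7 and 161 CPM (7.03, SE 0.88). Their stage 0 totals were 11, 4 and 12 counts. Mpp2, a scaffold protein, had 2 counts at stage 0 and 633 at stage 1 (ratio 322, 95% exact counting interval 88.8 to 2665). Hbegf, a growth factor of the EGF family, had 3 and 350 (ratio 119, interval 40.3 to 578), and Hrh4, a histamine receptor, 1 and 306 (ratio 311, interval 55.5 to 12336). These intervals pool the libraries and leave out the spread between them, which for Hrh4 ran from 0.204 to 31.0 CPM at stage 1. Cpne7, Phldb1, Aldh5a1 and Wfikkn2 also rose from 10 counts or fewer, by 6.77, 6.34, 6.33 and 6.13. The calls of Aldh5a1, Wfikkn2 and Hrh4 were lost in 2, 1 and 1 of the 12 fits without 1 library (adjusted p of up to 0.0603 for Aldh5a1 and 0.0607 for Wfikkn2). Among the steepest falls, Dmwd, a WD repeat protein, had 6.95, 17.6 and 67.2 CPM at stage 0 and 0 counts in all 6 stage 1 libraries, at least 41.1-fold lower against 3 counts per library. Adgrg1, an adhesion receptor (-5.75, SE 1.0), and Tcf7l2, a relative of Lef1 (-5.62, SE 1.20, lost in 6 of 12 fits without 1 library, up to 0.0708), came down to 16 and 7 counts in all.

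Whether the stage effect differed between genotypes was tested gene by gene. No gene passed the edgeR test of the difference between the stage effects (lowest Benjamini-Hochberg adjusted p = 0.483), while 1221 had an unadjusted p under 0.05 (7.78%), DESeq2 called 130 and limma-voom 0. Among the 363 called genes, 35 had an unadjusted p under 0.05 for this difference, which is 9.64%. The lowest belonged to Arpp21, with -9.20 (SE 1.0) in WT and -3.33 (SE 0.72) in Bcl6KO (unadjusted p = 1.46e-04), and St8sia6, with 1.61 (SE 0.58) and 5.43 (SE 0.70, unadjusted p = 5.47e-04). Cd2 and Itm2a followed, with -3.58 against -1.30 and -5.84 against -3.52. All 4 had an adjusted p of 0.483 or 0.494. Genes with opposite directions in the genotypes, such as Ccnd2, could not be among them, since all 363 called genes had the same sign in both.

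Markers of most other cells overlapped between stages in their summed level. Summed markers of B cells lay at 32.5 to 181 CPM in stage 0 and 48.1 to 162 CPM in stage 1, and those of myeloid cells at 15.5 to 94.4 and 10.8 to 98.9 CPM, with Cd14, Fcgr1 and C1qc at 0. For dendritic cells they were 101 to 237 and 81.1 to 163 CPM with Clec9a at 0, and for neutrophils and mast cells 0 to 13.3 and 0 to 6.68 CPM with 5 of 10 markers at 0. Thymic epithelial markers (141 to 243 and 92.5 to 200.3 CPM, Krt5 and Krt8 at 0) and erythroid ones (1.18 to 31.8 and 2.45 to 16.4 CPM, alpha globins at 0) overlapped likewise. Stromal and endothelial markers spanned 89.1 to 1485 CPM and 102 to 181 CPM, with Dcn, Pdgfra and Cdh5 at 0. Natural killer and innate lymphoid markers spanned 263 to 439.7 and 169 to 328 CPM with Ncr1 at 0, mostly from Gata3. Of the single markers, Pax5 of B cells (-4.47, SE 0.97, lost in 7 of 12 fits without 1 library, up to 0.0735) and Gpr83 of regulatory T cells (-3.88, SE 0.66) fell. Cd8a and Cd8b1 are shared between the double-positive and the CD8 single-positive list.

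Gamma-delta T cell markers also overlapped in their sum, but 2 of 8 tested members rose (25%, against 2.31% of all genes called). The list median was 3.69 (2.8 in WT and 4.5 in Bcl6KO). Of the 8 fold changes 7 were positive, and all 8 had an unadjusted p under 0.05 in edgeR's test, against 15.5% of all genes. With the Sp100 covariate 1 member rose (median 3.27), and with the covariate of genes detected 0 rose (median 2.38). DESeq2 called 4 higher and 1 lower. The sum ran from 9.62 to 1073 CPM at stage 0 and from 771 to 3812 CPM at stage 1, with the receptor gamma constant genes Tcrg-C2, Tcrg-C1 and Tcrg-C4 as its most abundant members and Trdv4 at 0. Tcrg-C4 went from 1.13, 22.6 and 152 CPM to 239.5, 367 and 703 CPM (3.58, SE 0.83, edgeR adjusted p = 0.0376) and Tcrg-C2 from 3.92, 8.77 and 546 CPM to 208, 384 and 1726 CPM (3.80, SE 0.89, edgeR adjusted p = 0.0383). Both calls were lost in 9 of the 12 fits without 1 library (adjusted p of up to 0.0836 and 0.0900), and 0 members passed without the Bcl6KO stage 0 libraries. Trdc, the delta constant gene that gamma-delta T cells need, was at 0, 7.44 and 73.9 CPM and then 0.196, 0.300 and 17.5 CPM, and did not pass (-3.30, SE 1.33, edgeR adjusted p = 0.239). The NKT17 genes Maf and Ccr2 rose beside the gamma genes, and the part of other cells in these rises was not tested.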

How the data were processed

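Sorted stage 0 and stage 1 cells gave 12 RNA libraries, extracted with a QIAGEN column kit and prepared with a NuGEN kit for very low inputs, per the labels' protocols. The authors deposited unnormalised gene counts, which list 48672 Ensembl identifiers in every library. The genome build was mm10 and the tools named are TopHat2, Bowtie2, bcl2fastq and DESeq, per the submitters' processing notes. Not given in the sources used here were tool versions, the program that counted reads, its annotation and its use of strand. A total of 48312 identifiers matched a symbol and interval of GENCODE release M21, and the others took at most 0.366% of a library.

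Library totals were scaled by TMM, and a count of 0 allows up to 3 counts (0.566 to 0.612 CPM), which covers counting error only, since these reads carry no molecular identifiers. Genes passing filterByExpr by the 4 groups (15704) were fitted in edgeR 4.0.16 (R 4.3.3) with robust quasi-likelihood dispersion and the model genotype + stage (9 residual degrees of freedom). Values within a genotype and the difference between genotypes came from a second fit with 1 mean per group (8). Tests were two-sided with Benjamini-Hochberg adjustment over all tested genes at 0.05, and standard errors were obtained from each log2 fold change and its F statistic (the absolute value over the root of F). Fold changes are stage 1 against stage 0. The common biological coefficient of variation was 0.864. No 2 libraries of a group agreed within sampling noise. The edgeR procedure was tested on simulated counts, where it made 3 false calls and DESeq2 1.42.0 made 56. Alternatives were DESeq2, limma-voom (limma 3.58.1), other scalings, filters and covariates, and leaving out each library.

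The comparison, its members and the 38 gene lists (27 of pathways, 11 of cell types) were chosen with earlier results of these data known. Named genes followed a rule: Cd24a, Cd44, Bcl6 and Zbtb16, then the 10 risen and 10 fallen genes of largest change and the 5 of lowest p each way, among called genes of at least 10 CPM whose stages did not overlap. Predicted models, pseudogenes, receptor segments, Xist and genes of chromosome Y were left out there. The rule added up to 2 risen and 2 fallen members per main list (1 each for other lists), or, where none passed, its most abundant tested member, and the 4 called genes of lowest p for the difference between genotypes. Further list members, and the genes said to be outside a list, were chosen after their values were seen. Of 361 called genes with exon annotation, 74 share over 5% of their exonic bases with another gene, so their counts may include its reads. Among those named are Aldh5a1 (17.7%), Cd52 (14.5%), Pax5 (8.60%), Foxo1 (7.78%), Myb (6.26%), Bcl2 (6.09%), Cd27 (5.54%) and Maf (5.34%). Some members of the lists are counted but not reported here by name.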

Additional observations from a re-analysis of the deposited data

Results flagged for a closer look

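In each stage, the 6 libraries were searched for 1 library set apart from the other 5, by a gap over 0.625 of the whole range. This was done for every named gene on log2(CPM + 1), and for total counts, genes detected and the shares of Sp100 and Malat1. Of 160 groups of 6, 18 met this. Chance gives about 1 in 20 for normally distributed values, which levels of single reads are not. No cause was tested for any of the 18.

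At stage 0, WT library 2 stood apart for genes that later rose from almost nothing. It held 0.980 CPM of Aldh5a1, 0.980 of Cpne7, 0.196 of Fasl and 1.76 of Wfikkn2, all above the other 5. It was also the lowest for Pax5, at 0.196 CPM against 16.5 to 57.0. WT library 3 had 0.196 CPM of Hrh4 where the others had 0, and 96.0 CPM of Ly6e against 331 to 549.7. F2rl1 was at 0 CPM in Bcl6KO library 1 and at 0.392 to 0.587 in the others, a difference of a few counts. Kdm5b was at 66.6 CPM in Bcl6KO library 3 against 189 to 302. Pecam1, an endothelial and leukocyte adhesion gene, reached 1433 CPM in Bcl6KO library 2 against 86.2 to 218.

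At stage 1, WT library 2 was the lowest for S1pr1 (33.0 CPM against 74.9 to 107), Ldhb (6.29 against 23.4 to 47.5), Cd52 (186 against 263 to 314) and Pcna, a replication clamp (176 against 305 to 417). Cd27 was at 223 CPM in Bcl6KO library 1 against 301 to 334, and Pecam1 at 173 CPM in Bcl6KO library 3 against 97.5 to 119. Adgrg1 reached 2.37 CPM in Bcl6KO library 2 and Dntt 1.78 CPM in WT library 1, against at most 0.397 and 0.396 elsewhere.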

How the results depend on the processing

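All 363 called genes had the same sign in every alternative of the 27 that tested them, as a stricter filter leaves some genes out. Of the 363, 252 were called in 14 or more of the 27 and 13 in all. The number of calls depended on the procedure. DESeq2 gave 1307 (354 shared) and limma-voom 637, the contrast within WT 68 and within Bcl6KO 106. The Sp100 covariate gave 97, the covariate of genes detected 14 (3 higher, 11 lower), and leaving out the 3 Bcl6KO stage 0 libraries, added after seeing the data, 149 (110 shared). The stage effect of this last fit rests on WT libraries alone. Leaving out each library in turn gave 187 to 563 calls. The number moved by over 1.5 times without WT stage 0 library 1 (238), 2 (563, 61.3% higher against 48.8%) or 3 (238), WT stage 1 library 1 (187), 2 (225) or 3 (230), or Bcl6KO stage 1 library 1 (206) or 3 (234). The average of both genotypes' contrasts gave 544 calls, 59.0% of them higher. Other scalings, filters and dispersion settings gave 348 to 455, and leaving out both Bcl6KO libraries of low Xist, also added later, gave 341. The cause of these shifts was not tested. For the difference between genotypes, 130 genes passed with DESeq2 and 7 without a filter on low counts, and 0 in the fits that leave out a library.

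Replicate numbers were shared between groups, and same-numbered libraries deviated together only weakly (18 correlations from -0.08 to 0.12, 2 over 0.1). Such correlations cannot tell whether they shared a pool, litter or day. Both Bcl6KO libraries numbered 2 had low Xist (399.6 CPM at stage 0 and 132.5 CPM at stage 1). With the replicate block 337 genes passed (278 shared), and 0 for the difference between genotypes.

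Of 121 named or listed called genes, 81 held without any 1 library, 11 in all alternatives and 0 reversed. Of 14 that were not called, 7 changed sign in some alternative and 1 passed in some. The median of all genes moved to 0.19 with limma-voom, 0.12 with the replicate block and 0.11 without the filter. Depth limits the genes at or under 3 counts, whose folds rest on single reads.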
